A study of Caenorhabditis elegans with 2 samples.

Results

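The neuropeptide and insulin-like peptide genes of Caenorhabditis elegans were taken as every protein-coding gene whose name begins flp-, nlp- or ins-. This gave 140 of the 19973 nuclear protein-coding genes, of which 31 were flp-, 71 nlp- and 38 ins-. Binding of SOX-2 at these genes was read from ChIP-seq peak lists of whole late embryos (3.5 hours, collected by egg bleaching) of strain RW12244. In this strain CRISPR had inserted TY1, EGFP and 3xFLAG into the endogenous sox-2 gene on chromosome X (st12244), and the tagged protein was precipitated with an antibody against GFP from chromatin sonicated to fragments of 200 to 800 bp. The 2 samples were biological replicates 1 and 2 of that 1 group. No untagged strain, second condition or control library was analysed here, so the values describe this one strain and stage. Because whole organisms were used, the cells in which SOX-2 lay at a gene cannot be told apart.

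Peptide genes encode preproproteins that are cut by proprotein convertases, trimmed and often amidated inside dense-core vesicles before release. The flp- genes encode FMRFamide-like peptides, the nlp- genes a mixed group of other neuropeptide-like proteins, and the ins- genes insulin-like ligands of the receptor DAF-2. Different sets of these genes are used by different neurons and they serve as terminal identity genes, while some nlp- and ins- genes are also active in intestine and epidermis. SOX-2 is an HMG box transcription factor of the SoxB group, a family known in animals for its roles in neural progenitors.

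A gene was given a ranked summit where the summit of a peak in the ranked list of the series (made from both replicates, with 8486 nuclear peaks) lay inside the gene or within 2000 bp of one of its 5′ ends. A thresholded summit was one whose peak was also in the thresholded list of the series (677 peaks). Every peak of that list had an irreproducible discovery rate (IDR, which is low where repeat rankings of a peak are alike) of at most 1%. The signal of a peak is the authors' value for it, whose scale no source used here gives. Read counts were not part of the lists, so the depth behind each value is unknown.

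Few peptide genes had a strong SOX-2 summit. A ranked summit lay at 39 of the 140 peptide genes (27.9%, Wilson 95% interval 21.1 to 35.8%), against 33.7% of all coding genes. A thresholded summit lay at 5 of them (3.57%, interval 1.53 to 8.09%), against 3.92% of all coding genes. With the window of 2000 bp, the members' share thus lay near the background in both lists. The interval held the background value each time. With 1000 bp a ranked summit lay at 18 of the 140, a lower share than the 26.3% of all coding genes. The intervals cover counting error over genes only.

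All 3 families had ranked summits, with overlapping intervals. Ranked summits lay at 11 of 31 flp- genes (35.5%, interval 21.1 to 53.1%), 19 of 71 nlp- genes (26.8%, interval 17.9 to 38.1%) and 9 of 38 ins- genes (23.7%, interval 13 to 39.2%). The difference between families was not tested. Thresholded summits lay at 1 flp- gene (flp-23), 2 nlp- genes (nlp-76 and nlp-4) and 2 ins- genes (ins-37 and ins-13).

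**Figure D1:**
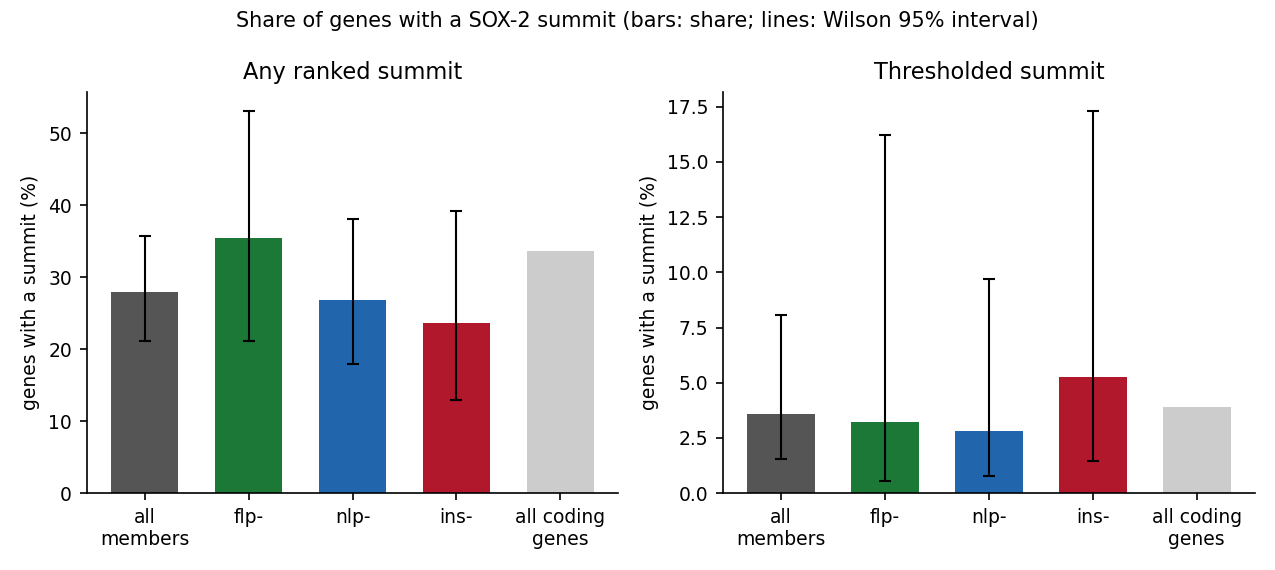
Share of genes (in percent) with any ranked summit (left) and with a thresholded summit (right), for all 140 peptide genes, for each family and for all 19973 coding genes; bars are shares and lines are Wilson 95% intervals. The interval of the 140 peptide genes holds the share of all coding genes in both panels.

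The call at 4 of the 5 genes held in each replicate's own list. Replicate 1 alone had thresholded summits at 4 peptide genes (2.86%, against 3.23% of all coding genes), which were flp-23, ins-13, ins-37 and nlp-76. Replicate 2 alone had them at 6 (4.29%, against 3.3% of all coding genes), which were the same 4 with nlp-4 and ins-17. The conservative list of the series gave the same 5 genes as the main list, against 3.95% of all coding genes. When each thresholded summit was given only to the coding gene with the nearest 5′ end, 3 peptide genes were left (2.14%, against 2.26% of all coding genes), namely flp-23, ins-13 and nlp-76. The summits at nlp-4 and ins-37 lay nearer to the 5′ ends of F59C6.18 and F08G2.5.

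The 5 thresholded summits lay on or beside small non-coding RNA genes. At 4 of the 5 the summit base itself was inside an annotated non-coding gene, against 168 of 660 nuclear thresholded summits (25.5%). Of the 36 peptide gene summits below the threshold, 1 was (2.78%), against 6.03% of the 7826 nuclear summits below it. The thresholded summit at nlp-4 lay outside such a gene. It was within 500 bp of a snoRNA gene, as 7.58% of nuclear thresholded summits were. A nuclear share for lying on or beside any small RNA gene was not computed. The bases around 4 of the 5 thresholded summits are shown because they let the RNA genes under them be read directly. Each window holds the 101 bases centred on the summit, on the plus strand of ce11. Capitals mark the letters GTTCGANNC, the core of the B box that RNA polymerase III factors read inside tRNA genes, or the same letters on the minus strand. The windows are X:12665228-12665328 for nlp-76, III:8650363-8650463 for flp-23, II:5543576-5543676 for ins-13 and II:13834465-13834565 for ins-37.
nlp-76: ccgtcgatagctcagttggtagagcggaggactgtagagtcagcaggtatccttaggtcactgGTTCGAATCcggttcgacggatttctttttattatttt
flp-23: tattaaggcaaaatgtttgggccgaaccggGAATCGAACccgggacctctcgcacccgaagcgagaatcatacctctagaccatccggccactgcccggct
ins-13: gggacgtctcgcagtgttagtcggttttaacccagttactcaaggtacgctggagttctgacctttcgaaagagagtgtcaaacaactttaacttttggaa
ins-37: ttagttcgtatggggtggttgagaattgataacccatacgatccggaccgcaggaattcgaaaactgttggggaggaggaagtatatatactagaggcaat
The nlp-76 window opens with the first base of a tRNA-Tyr gene of 84 bases, and the flp-23 window holds the whole of a tRNA-Pro gene of 72 bases on the minus strand. The ins-13 window covers most of the 110 bases of sls-2.2, which encodes an SL2 RNA, the leader that is trans-spliced onto downstream genes of operons. The ins-37 window lies over F08G2.13, an annotated ncRNA of 75 bases with no role given here.

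The letters of the B box were in 2 of the 5 windows, those of the tRNA genes (searched on either strand, to 50 bp from the summit). Of all nuclear tRNA genes 72.1% hold them. So do 11.8% of the windows at nuclear thresholded summits, and 50% of those at thresholded summits within 500 bp of a tRNA gene. Over the windows at all 8486 nuclear ranked summits the share was 2.11%. None of the 5 windows held the SOX core letters CATTGT or CTTTGT, which 20.2% of the 660 nuclear thresholded windows held, or the octamer letters ATGCAAAT or ATGCTAAT (2.12%). The share with SOX core letters was 2.54% at thresholded summits within 500 bp of a tRNA gene, as 2 of these 5 are. At the other nuclear thresholded summits it was 24%. A match or its lack is a description of these letters in these windows only.

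The strongest summit at any peptide gene was that of nlp-76. It had a signal of 207 in the pooled list (IDR 0.001%), with 112 in replicate 1 and 98.1 in replicate 2 (mean 105 ± 9.75 SD, n = 2). Among nuclear thresholded summits it ranked 46 of 660 by signal. The summit at X:12665278 lay 1375 bp upstream of nlp-76, within an intron of the neighbouring nhr-17, a nuclear hormone receptor gene, and on the tRNA-Tyr gene. Both replicates gave it a high value and passed it on their own.

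The flp-23 summit was the one closest to the 5′ end of its peptide gene among the 5. It lay at III:8650413, 354 bp upstream of flp-23 and on the tRNA-Pro gene. Its signal was 108.1 in the pooled list (IDR 0.031%), with 51.6 in replicate 1 and 59.0 in replicate 2 (mean 55.3 ± 5.29 SD, n = 2), so the replicates lay close together. It ranked 298 of 660. The window of F22B7.3 held the same summit.

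The ins-13 and ins-37 summits lay past the 3′ ends of their genes. At ins-13 the summit (II:5543626) was 1238 bp from the 5′ end, on sls-2.2, and also in the window of C17C3.24. Its signal was 113 in the pooled list (IDR 0.0323%), with 75.4 in replicate 1 and 53.0 in replicate 2 (mean 64.2 ± 15.9 SD, n = 2). At ins-37 the summit (II:13834515) was 1592 bp from the 5′ end and 884 bp from that of F08G2.5. Its signal was 134 in the pooled list (IDR 0.0083%), with 53.6 in replicate 1 and 82.5 in replicate 2 (mean 68.0 ± 20.5 SD, n = 2). The replicate with the higher value was thus not the same at the 2 genes.

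The nlp-4 summit was the least alike between replicates of the 5. It lay in an intergenic stretch past the 3′ end of nlp-4, 836 bp from its 5′ end and 69 bp from the snoRNA gene F59C6.15, at I:10517219. Its signal was 137 in the pooled list (IDR 0.00773%), with 49.9 in replicate 1 and 82.4 in replicate 2 (mean 66.1 ± 23.0 SD, n = 2). Replicate 2 passed it on its own, while its IDR in replicate 1 was 3.92%. The windows of F59C6.18, che-13 (a cilium gene) and exos-3 (an exosome subunit gene) held the same summit, so it cannot be given to nlp-4 alone.

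**Figure D2:**
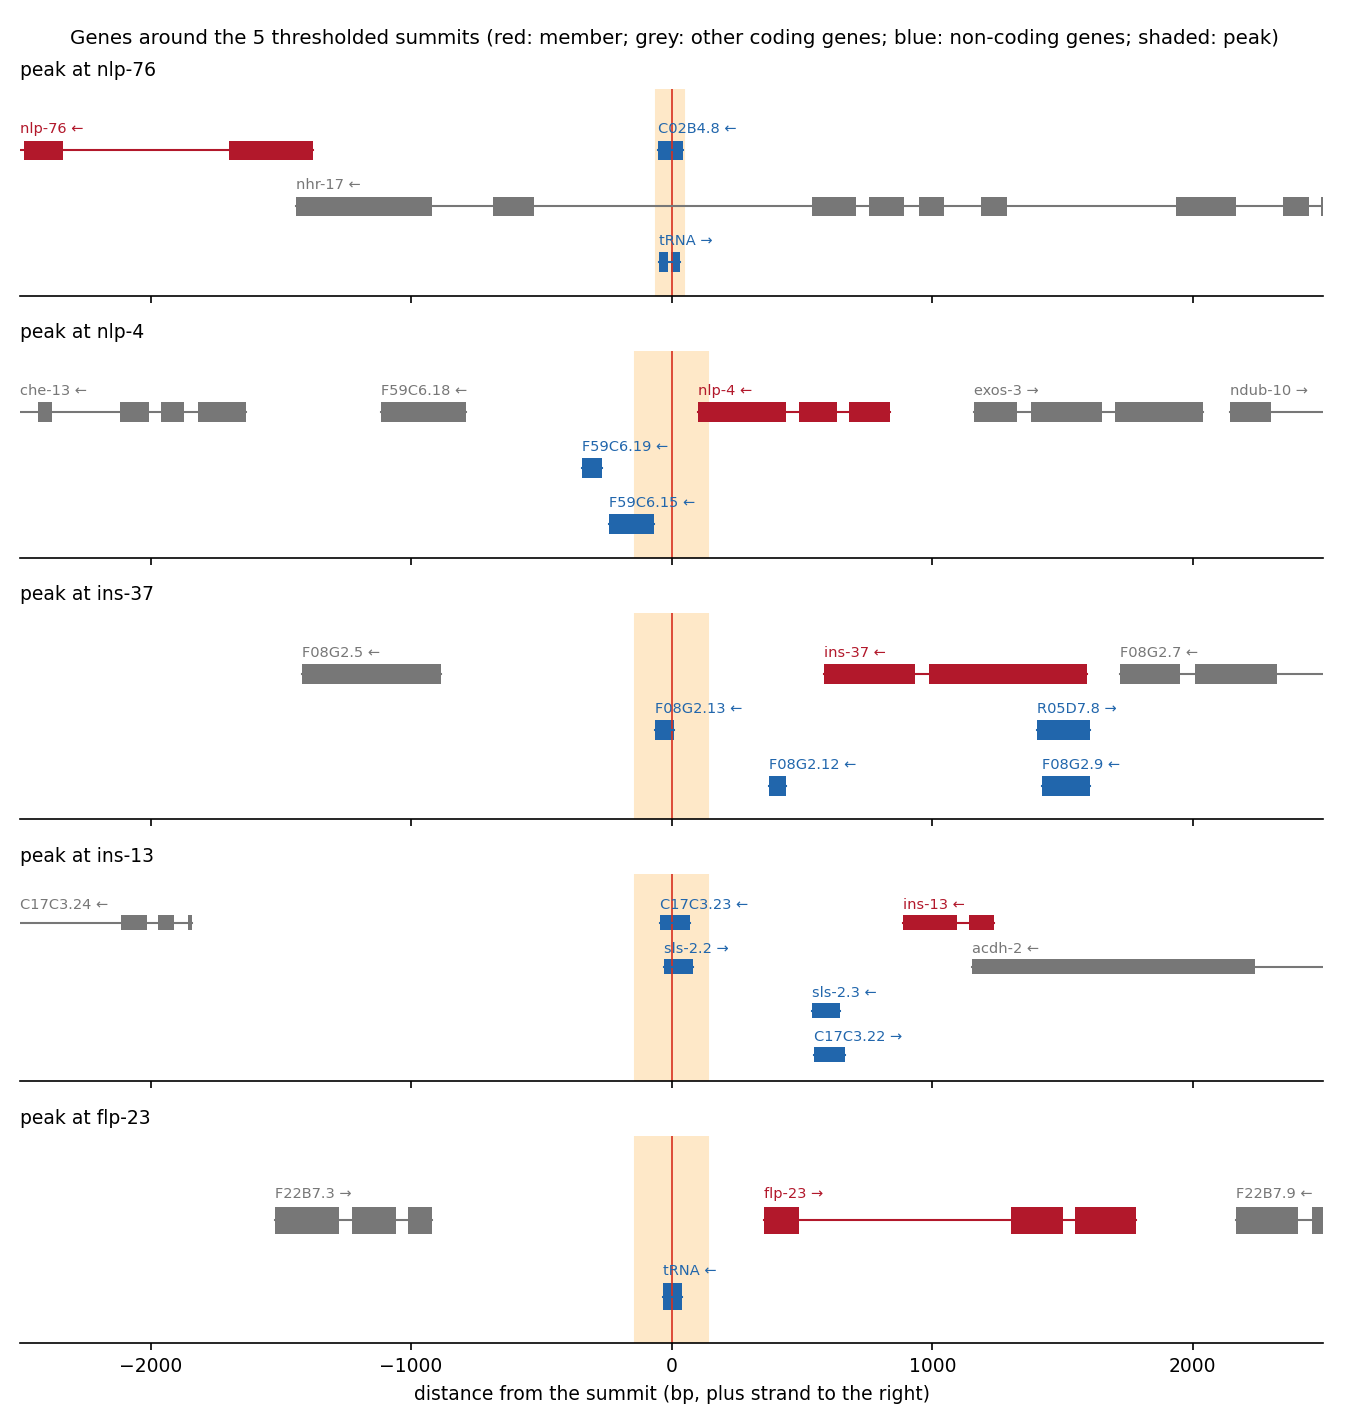
Annotated genes within 2500 bp of the 5 thresholded summits at peptide genes, with distance from the summit in bp on the horizontal axis; boxes are exons, arrows give the strand, the line at 0 is the summit and the shaded band the peak. A non-coding gene lies under the summit in every panel but that of nlp-4, where a snoRNA gene ends 69 bp away.

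Part of the sequence around these summits is repeated in the genome, which bears on how reads can be placed. Of the 36-base words within 100 bp of the summit, 38.0% at nlp-76, 31.3% at ins-13, 30.1% at flp-23 and 10.2% at nlp-4 occur more than once, and none at ins-37. Their part in the signal was not tested.

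Setting aside summits within 500 bp of a tRNA gene left 3 peptide genes with a thresholded summit (2.14%, interval 0.731 to 6.11%), against 3.35% of all coding genes. A tRNA gene lay within 2000 bp of a 5′ end at 3 peptide genes (2.14%), against 1.9% of all coding genes, so peptide genes had tRNA neighbours about as often as others. Of those 3, flp-23 and nlp-76 had a thresholded summit and nlp-62 did not, against 101 of 379 such coding genes (26.6%). Among genes with no tRNA neighbour, 3 of 137 peptide genes (2.19%) had a thresholded summit, against 681 of 19594 coding genes (3.48%).

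Below the threshold the peptide gene summits were weak. The 36 summits had signals of 33.2 to 75.2 with a median of 36.7, against a median of 39.9 over 7826 nuclear ranked summits below the threshold. An IDR of 10% or less was reached by 7 of the 41 distinct summits (17.1%), counting the 5 above, against 14.3% of nuclear ranked summits. At 21 of the 41 (51.2%) the IDR was 84.8%, the highest of the list, against 46.7% of nuclear ranked summits.

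The strongest ins- gene below the threshold was ins-17, an insulin-like gene reported to act against DAF-2 signalling. Its summit (III:4475670) had a signal of 75.2 in the pooled list (IDR 3.03%), with 26.1 in replicate 1 and 54.3 in replicate 2 (mean 40.2 ± 19.9 SD, n = 2). Replicate 2 alone passed it (IDR 0.814%), while in replicate 1 its IDR was 50.6%. The summit lay 1902 bp from the 5′ end of ins-17, past its 3′ end, and 248 bp upstream of the ribosomal protein gene rps-1. It was the one summit below the threshold that lay on a non-coding gene, F56F3.10. Next among the ins- genes were ins-39 (45.6, with 26.5 in replicate 1 and no summit within 100 bp in replicate 2), ins-18 (36.3), an insulin-like gene reported to antagonise DAF-2, and ins-10 (34.7). The ins-39 summit lay 509 bp upstream of its gene, with no other coding gene in reach.

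Among the nlp- genes nlp-71 came next after nlp-76 and nlp-4. Its summit had a signal of 64.5 (IDR 2.71%), with 31.3 in replicate 1 and 34.2 in replicate 2, and lay 1686 bp upstream of nlp-71 and 210 bp from the 5′ end of exos-2, an exosome subunit gene. The nlp-40 summit, at a gene whose peptide is released from the intestine to time defecation, had 53.5, with 26.6 in replicate 1 and 22.5 in replicate 2. The nlp-12 summit, at the gene of a cholecystokinin-like peptide of the DVA neuron, had 51.1, with 17.5 in replicate 1 and 32.4 in replicate 2. That summit was 1811 bp from the 5′ end of nlp-12 and 5 bp from that of tag-96. At nlp-101 the summit lay 495 bp upstream with no other coding gene in reach, and had 50.2, with 23.1 in replicate 1 and 24.7 in replicate 2. None of these passed in either replicate alone.

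Among the flp- genes flp-25, flp-33, flp-32 and flp-14 followed flp-23. The flp-25 summit had 55.4 (IDR 71.4%), with 22.5 in replicate 1 and 30.8 in replicate 2, and lay 1793 bp upstream in an untranslated exon of K04H4.5. The flp-33 summit had 44.2, with 20.8 in replicate 1 and 22.6 in replicate 2, and lay in an intron of ntr-1, which encodes a receptor for the vasopressin-like peptide nematocin. At flp-32 the summit had 42.1, with 24.98 in replicate 1 and 16.4 in replicate 2, 630 bp upstream of the gene. At flp-14 the stronger of its 2 summits had 39.5, with 30.3 in replicate 2 and no partner in replicate 1, and lay 3216 bp into the gene in an intron. All 4 lay under the signal of flp-23 in the pooled list, by which they were ordered, and in each replicate where they had one.

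**Figure D3:**
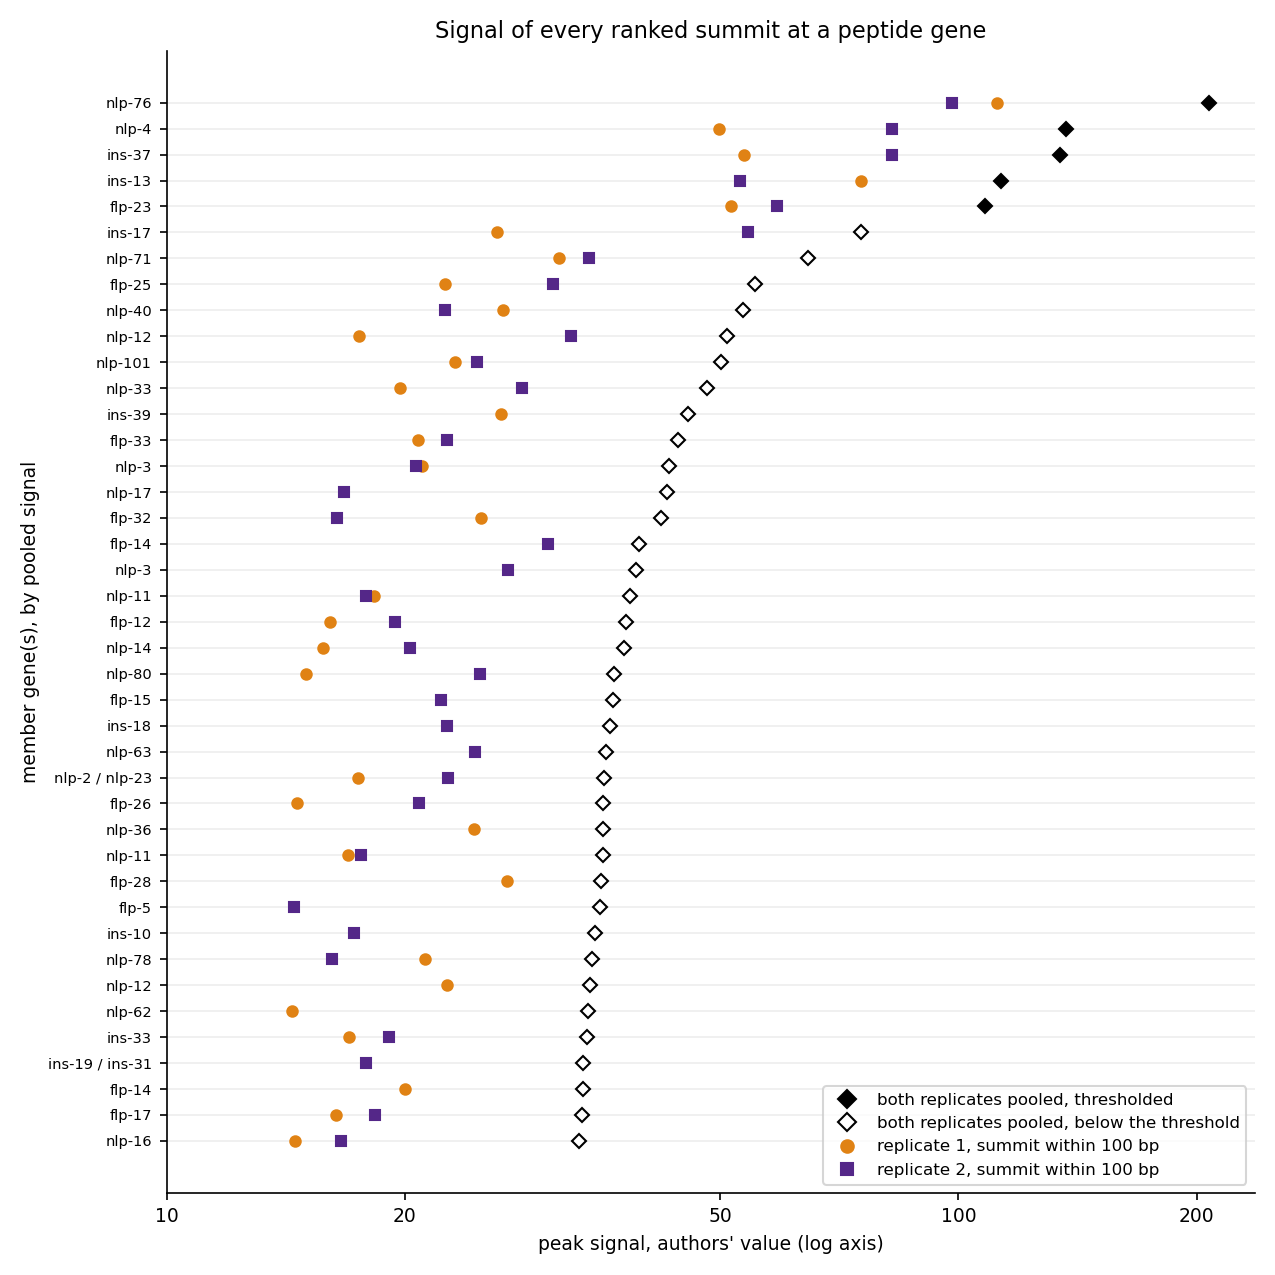
Signal (the authors' value, log axis) of each of the 41 distinct ranked summits at peptide genes, 1 row per summit; diamonds are the pooled list, filled where thresholded, circles are replicate 1 and squares replicate 2 where a summit lay within 100 bp. The 5 thresholded summits lie at 108.1 to 207, the other 36 at 33.2 to 75.2.

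All 5 thresholded summits had a partner in both replicates, which their selection by a low IDR makes likely in advance. So did 21 of the 36 others. No nuclear share is given for either set alone. Of the 41 summits 32 had a partner within 100 bp in the ranked list of replicate 1, 35 in that of replicate 2 and 26 in both (63.4%), against 59.9% of nuclear ranked summits in both. Across these 26 regions, Spearman's rho of the replicate signals was 0.65 and Pearson's r of log2 signals 0.86, as a description of regions that share their libraries. Over all 5082 paired nuclear summits, with thresholded ones included, rho was 0.48. Over the 21 peptide gene summits below the threshold it was 0.34, a set for which no nuclear counterpart was computed. Replicate 1 was higher at 7 of the 26 and replicate 2 at 19, and the ratio of replicate 1 to replicate 2 ran from 0.481 to 1.52 with a median of 0.883, against a median of 1.06 over all paired nuclear summits.

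Most of the 39 peptide genes had a single summit. There were 35 with 1 and 4 with 2 (flp-14, nlp-3, nlp-11 and nlp-12), and none had more. Neighbouring peptide genes shared a summit in 2 cases. One lay in a coding exon of nlp-2 and 1246 bp upstream of nlp-23 (35.7 pooled, with 17.4 in replicate 1 and 22.7 in replicate 2). The other lay past the 3′ end of ins-19 and 1421 bp upstream of ins-31 (33.6 pooled, with 17.8 in replicate 2 alone). The 39 genes and 41 summits therefore made 43 pairs of gene and summit. Over all coding genes there were 9639 such pairs at 6731 genes. The part of gene length in these numbers was not tested.

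The summits lay farther from 5′ ends than at coding genes at large. The median distance was 1363 bp over the 43 pairs, against 1050 bp over the 9639 pairs of all coding genes. Within 500 bp of the 5′ end lay 5 pairs (11.6%, against 30.1% of all pairs), and between 1501 and 2000 bp lay 16 (37.2%, against 16.7%). The 5 close ones were nlp-3 at 93 bp, nlp-14 at 186 bp, flp-28 at 307 bp, flp-23 at 354 bp and nlp-101 at 495 bp, all upstream. The differences in these shares were not tested.

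Relative to the gene, 22 of the 43 pairs had the summit upstream (51.2%, against 45.2% of all pairs), 5 inside the gene (11.6%, against 46.2%) and 16 past the 3′ end (37.2%, against 8.53%). Peptide genes are short, with a median of 888 bp against 2027 bp over all coding genes (1186 bp for flp-, 860 bp for nlp- and 649 bp for ins- genes), and a window of 2000 bp reaches past most of them. How much of the difference in position goes with gene length was not tested. Counting the 5′ windows alone, without gene bodies, left 38 peptide genes with a ranked summit, against 30.4% of all coding genes.

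Another coding gene shared the summit in 26 of the 43 pairs (60.5%, against 50.2% of all pairs). In 16 of the 43 the nearest 5′ end belonged to a gene other than the peptide gene named. By annotation 24 of the 41 summits were intergenic, 8 intronic, 3 in a coding exon and 3 in an untranslated exon. The others lay on non-coding genes alone, and the summit in nlp-2 counts as both exonic and, for the overlapping T01B6.1, intronic. For these classes and for the nearest 5′ end, no share over all coding genes or summits is given here. Just inside the window were flp-17 at 1972 bp, nlp-40 at 1908 bp and ins-17 at 1902 bp. Just outside it were ins-27 at 2058 bp, nlp-22 at 2116 bp and flp-20 at 2135 bp, with signals of 38.7, 35.7 and 42.2.

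**Figure D4:**
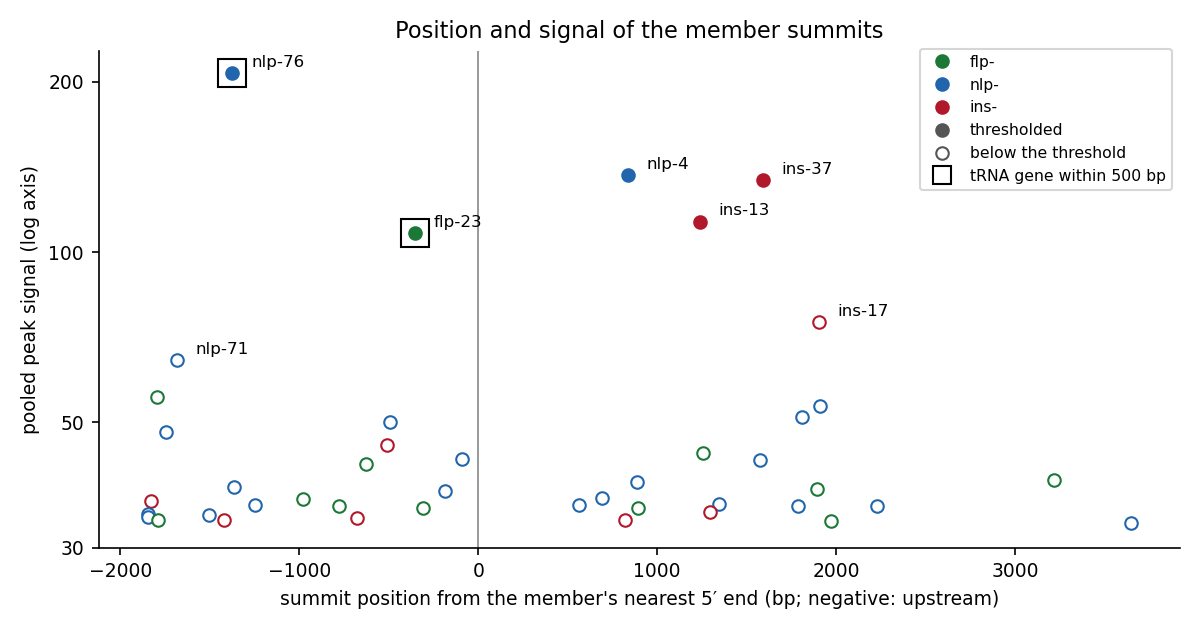
Pooled signal (log axis) of each pair of peptide gene and summit against the position of the summit from the nearest 5′ end of that gene in bp, negative upstream; colours are families, filled points are thresholded and squares mark a tRNA gene within 500 bp. The 2 thresholded summits upstream of their genes are the 2 beside tRNA genes, and the other 3 lie past the 3′ end.

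The SOX core letters were about as frequent at peptide gene summits as at all nuclear ranked summits. Within 50 bp of the summit 7 of the 41 windows held CATTGT or CTTTGT on either strand (17.1%, interval 8.53 to 31.3%), against 16.6% of the 8486 nuclear ranked windows. Flanking windows centred 300 bp to each side held them in 9 of 82 cases (11%), against 10.2% over all nuclear ranked summits. CATTGT was in 4 windows (9.76%, against 10%) and CTTTGT in 3 (7.32%, against 7.29%). No window held the octamer letters (0 of 41, interval 0 to 8.57%), against 1.34% of nuclear ranked windows.

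The windows with the core letters were those of ins-17, flp-25, flp-32, nlp-3, flp-12, nlp-63 and flp-17. The 5 printed here show where the core stood in the 101 bases around the summit, with capitals for CATTGT or CTTTGT, or ACAATG or ACAAAG where the core is on the minus strand. They are III:4475620-4475720 for ins-17, X:15433107-15433207 for flp-32, X:13177511-13177611 for nlp-3, II:10156699-10156799 for nlp-63 and IV:17189869-17189969 for flp-17, on the plus strand of ce11.
ins-17: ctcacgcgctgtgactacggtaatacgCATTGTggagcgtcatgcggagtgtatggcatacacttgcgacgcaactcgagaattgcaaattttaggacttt
flp-32: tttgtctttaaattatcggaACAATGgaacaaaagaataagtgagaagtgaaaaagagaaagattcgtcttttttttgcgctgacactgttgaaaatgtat
nlp-3: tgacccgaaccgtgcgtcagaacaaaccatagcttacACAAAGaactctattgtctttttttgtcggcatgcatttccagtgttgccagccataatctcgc
nlp-63: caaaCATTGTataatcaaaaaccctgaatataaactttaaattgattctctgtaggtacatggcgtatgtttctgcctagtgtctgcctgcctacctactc
flp-17: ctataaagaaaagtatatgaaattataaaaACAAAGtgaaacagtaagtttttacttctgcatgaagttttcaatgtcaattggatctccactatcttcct
The core lay within 30 bp of the summit in all of these but nlp-63, where it began 46 bp away. At nlp-3, a gene active in the egg-laying HSN neurons, this was the summit past the 3′ end (39.2 pooled, with 27.0 in replicate 2 and none in replicate 1). Its other summit, 93 bp upstream of the gene, had 43.1 with 21.05 in replicate 1 and 20.6 in replicate 2, and no core letters. At flp-17, expressed in the BAG sensory neurons, the pooled signal was 33.5, with 16.4 in replicate 1 and 18.3 in replicate 2. Of the 7 summits with core letters, ins-17 at 75.2 and flp-25 at 55.4 had the highest pooled signals, and the others lay at 33.5 to 42.1.

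The remaining 101 peptide genes had no ranked summit in the series list. In the longer ranked lists of the single replicates, 83 of the 140 had a summit in replicate 1 (59.3%, against 67.3% of all coding genes) and 89 in replicate 2 (63.6%, against 67.7%). Summits of both replicates within 100 bp of each other lay at 31 (22.1%, against 27.3%). Of these, 4 had none in the series list (12.9% of the 31, against 15.8% of such coding genes), namely flp-16, flp-18, nlp-18 and nlp-45. Their signals were low, for example 18.9 in replicate 1 and 15.6 in replicate 2 at flp-18, whose peptides are ligands of NPR-1 and NPR-5. No list held a summit for 30 peptide genes (21.4%, against 16.8% of all coding genes), of which 3 were flp-, 15 nlp- and 12 ins-. Among them were the neighbouring antimicrobial peptide genes nlp-27, nlp-28, nlp-29 and nlp-30 of the epidermis and the insulin-like genes ins-6 and ins-7, which were picked out after their values were seen. Others near them in place or name did have summits. At nlp-31 and nlp-34 the signal was 17.4 in replicate 1 and 12.6 in replicate 2, with none in the series list, and nlp-33 had 48.1 in the pooled list.

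Peptide genes are frequent on chromosome X, which held 34 of the 140 (24.3%), against 13.7% of all coding genes. A ranked summit lay at 12 of the 34 (35.3%), against 37.6% of all coding genes on X, and a thresholded one at 1 (nlp-76), against 5.57%. Chromosome V held 23 peptide genes (16.4%), against 25% of all coding genes. A ranked summit lay at 3 of the 23 (13%), also against 25% of the coding genes on V, and this difference was not tested.

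The genes that process, receive or answer to these peptides were read in the same way. Of 19 genes of neuropeptide processing and release, 8 had a ranked summit (42.1%, against 33.7% of all coding genes) and 1 a thresholded one (5.26%, against 3.92%). This was unc-104, the kinesin that carries vesicle precursors along axons. Its summit inside the gene had 144, with 57.7 in replicate 1 and 80.5 in replicate 2 (mean 69.1 ± 16.1 SD, n = 2), and both replicates passed it. The median length of these genes was 5035 bp, so their windows are wider than those of the peptide genes. Of 10 peptide genes with other names, such as daf-28 and pdf-1, lury-1 alone had a ranked summit, with a signal of 38.0 (10% of the list, against 33.7% of all coding genes), and none had a thresholded one (against 3.92%).

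Of 15 genes of the insulin receptor pathway, 11 had a ranked summit (73.3%, against 33.7% of all coding genes) and 1 a thresholded one (6.67%, against 3.92%). This was daf-16, the FOXO factor downstream of DAF-2, whose summit had 118, with 76.5 in replicate 1 and 51.0 in replicate 2 (mean 63.7 ± 18.05 SD, n = 2), and both replicates passed it. The receptor gene daf-2 had 4 ranked summits, none thresholded, the strongest at 50.4. The median length of these genes was 7727 bp, against 2027 bp over all coding genes, and the part of this length in the share was not tested.

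Of 106 neuropeptide receptor genes, 24 had a ranked summit (22.6%, against 33.7% of all coding genes) and 1 a thresholded one (0.943%, against 3.92%), npr-15. Its summit had 82.3 (IDR 0.351%), with 40.6 in replicate 1 and 39.2 in replicate 2 (mean 39.9 ± 1.00 SD, n = 2), and passed in neither replicate alone. The median length of the 106 receptor genes was 3825.5 bp, against 2027 bp over all coding genes. The part of this length in their share was not tested. Receptor and ligand genes met at 1 summit, that of ntr-1 and flp-33. In each of the 4 lists the number of thresholded genes was 0 or 1, and no difference between lists was tested.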

How the data were processed

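The authors deposited peak lists (build ce11). Per the text list deposited with them, each was made from the alignments of 1 or both replicates and a control. No source used here gives the aligner or the peak caller, or the scale of the peak signal that the authors deposited. The ranked lists also hold the authors' −log10 IDR (highest value 5). Tested on the files, thresholded peaks all had a −log10 IDR of at least 2, and these lists used a further input that is not described. Summits were read from the deposited start and summit offset. In the ranked series lists, 4 columns of values with no sample name were not used.

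Summits were placed on the Ensembl release 115 annotation of WBcel235 (the assembly of ce11) and the RefSeq sequence of that assembly, with coordinates counted from 1. RefSeq gave tRNA products. Replicate signals were taken at the nearest summit within 100 bp. Scripts used Python 3.11.15, NumPy 2.4.6 and SciPy 1.17.1, and the assignment of summits was tested on simulated peaks. Intervals of shares are Wilson 95% intervals and cover counting error only. With 1 group of 2 samples no test was made, and no depth is known.

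The peptide genes, pathway lists and alternatives were chosen with earlier results of these data known. Genes named are those with a thresholded summit and, of the rest, the 4 per family with the highest ranked signal. Of each pathway list they are the thresholded genes, or else the strongest one. Any other gene was named after its values were seen. The names rab-2 and snpp-1 matched no gene name of the annotation, and other names of these genes were not searched. Protein sequences were not used here.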

Additional observations from a re-analysis of the deposited data

How the results depend on the processing

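The count of 5 of 140 peptide genes with a thresholded summit fell to 2 of 140 with a window of 1000 bp (against 2.82% of all coding genes). It fell to 3 of 140 when only the nearest 5′ end was used (against 2.26%). It was 4 to 6 with 1 replicate left out, 7 with a window of 5000 bp (7.09% of all coding genes), and 5 in the conservative list, by the thresholded summit itself and without gene bodies. It was also 5 among the stronger peaks, against 1.95% of all coding genes. The count of 39 of 140 with a ranked summit was 83 to 89 in the lists of a single replicate, which are longer. It was 71 of 140 with 5000 bp (against 53% of all coding genes) and 24 of 140 by the nearest 5′ end (against 22.4%). With 1000 bp it was 18 of 140, a lower share than the 26.3% of all coding genes. For ranked summits the nearness to the background thus does not hold at 1000 bp. For thresholded summits the share lay above the background among the stronger peaks, and below it at 1000 bp and 5000 bp. The count of genes with a ranked summit was 39 in the other ranked list and 38 without gene bodies. Leaving out gene bodies was chosen after seeing the data. The share of summits with the SOX core was 34.1% within 100 bp, against 28.6% of nuclear ranked summits, since a wider window holds more letters. It was 9.76% within 25 bp (against 8.53%), 9.76% for CATTGT alone (against 10%) and 17.9% away from tRNA genes (against 17.1%). The 3 genes thresholded away from tRNA genes stayed 3 at 1000 bp and in the conservative list. Pairing within 50 bp gave 20 summits in both replicates and within 200 bp 29, against 26. No paired analysis was possible because the series has a single group. Limits are that no read counts, second condition or control library were analysed here, and the short genes, whose windows reach their neighbours.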

Other observations

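The summit with the most repeated sequence among the 41 was that of nlp-17, where 100% of the 36-base words within 100 bp occur more than once in the genome. It had a pooled signal of 42.9, with 16.7 in replicate 2 and no partner within 100 bp in replicate 1. At 34 of the 41 summits no such word was repeated. The summits at peptide genes had a median GC content of 41.8% within 100 bp. For repeated words and GC content, values over all nuclear ranked summits are not given here.

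The receptor gene npr-13 had a summit of 72.0 that did not pass the threshold (IDR 3.79%), with 35.0 in replicate 1 and 35.4 in replicate 2, 21 bp from a tRNA gene. It was picked out after its values were seen.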
